A study of Danio rerio with 8 samples.

Results

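Cytochrome P450 (CYP) genes were examined in whole livers of adult female zebrafish fed a diet based on whole egg (Whole Egg) or a control diet (Control). A gene was a member if its Ensembl identifier carries a symbol starting with cyp and a number, in capital or small letters. The CYP7, CYP8, CYP27A and CYP51 genes of bile acid and cholesterol synthesis were left out. A member also needed at least 10 counts over all fish. Of 32520 genes counted, 88 carried such a symbol, 12 of these were left out by name, 10 of the remaining 76 had fewer than 10 counts, and 66 were members. These fall into 29 subfamilies of 12 families. In all, 19528 genes had at least 10 counts.

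The Whole Egg group held 4 females on a formulated diet in which whole egg product supplied about 50% of the protein. The Control group had 4 females on a formulated diet with protein from several sources. By the paper, the Whole Egg diet also held more fat and energy than the Control diet, and the high-fat control diet was not sequenced. Egg protein and fat content therefore cannot be told apart here. Both diets were given from day 21 at about 6% of body weight per day, livers were taken at an age of 36 weeks, and the labels give no strain or genotype. Fish are named by diet and label number (Whole Egg-1 to Whole Egg-4 and Control-1 to Control-4), each with 1 library of RNA depleted of ribosomal RNA. Fish of the trial were reared 10 to a tank and the labels do not say which fish shared one, so p-values here measure the spread between these fish.

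P450 enzymes are heme proteins that insert an atom of oxygen into a substrate, and most sit in the endoplasmic reticulum, where they draw electrons from cytochrome P450 oxidoreductase. Members of families CYP1 to CYP3 oxidize drugs, pollutants and other foreign compounds, and many of them, with CYP4 enzymes, also act on fatty acids. Other families have 1 endogenous task each, such as making or clearing steroid hormones, vitamin D or retinoic acid, and the liver is the main site of the foreign compound enzymes. Zebrafish have many CYP2 genes in groups of neighbouring copies, and the roles of most single copies are known less well than those of their mammalian relatives.

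Between 16916307 (Whole Egg-4) and 35871236 (Control-3) reads per fish were counted on genes, of which 21082 (Whole Egg-4) to 50966 (Control-3) lay on P450 genes. Reads that mapped to several places, 33.9% to 37.9% of a library, were not counted, so near-identical P450 copies lack the reads they share. Values are given in CPM, counts scaled to a common library size, with TMM factors, which correct library size for differences in RNA composition and were lowest in Control-4 (0.682) and highest in Whole Egg-2 (1.72). The hepatocyte markers were all detected, and their sum was 14222 CPM in Whole Egg-2 and between 32508 and 48395 CPM in the other 7 fish. The high TMM factor of Whole Egg-2 lowers every CPM value of that fish, and marker sums without the factors are not given here. Whole Egg-2 also had the highest sum of ovary and oocyte markers, 992 CPM against 6.94 to 115 CPM in the other fish, and Control-2 had the highest sums of pancreas (1819 CPM) and intestine (451 CPM) markers. In whole livers, fewer cells of a type and less RNA per cell cannot be told apart.

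The CYP2 family took 59.3% of all P450 reads with 39 members, CYP4 took 16.2% with 4 members and CYP1 took 15.9% with 4 members. By subfamily, 4 of the 29 held 59.7% of P450 reads: CYP2K (17.0%, 9 members), CYP1A (14.7%, 1 member), CYP2AD (14.4%, 3 members) and CYP4V (13.6%, 2 members). CYP2X, CYP2P, CYP2Y and CYP2U followed with 8.16%, 6.25%, 4.93% and 3.36%. The families with a single endogenous task were small in this liver RNA, from CYP24 with 2.62% down to CYP26 with 0.128%. Shares are means over the 8 fish and count reads without dividing by transcript length, so a long transcript has more reads than a short one at the same number of molecules.

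**Figure D1:**
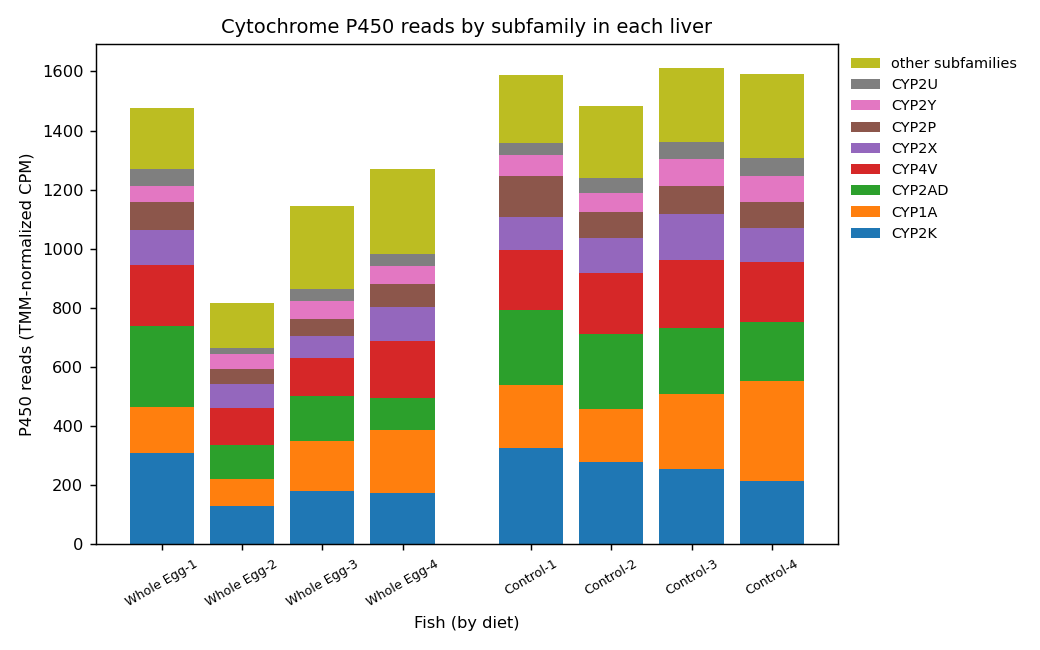
P450 reads of each liver in TMM-normalized CPM (vertical axis), stacked by subfamily, for the 4 Whole Egg fish on the left and the 4 Control fish on the right; each bar is 1 fish. The Whole Egg bars reach 817 to 1476 CPM and the Control bars 1483 to 1612 CPM, and the same 8 subfamilies hold most of every bar.

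Summed over the 66 members, P450 reads came to 1476, 817, 1143 and 1269 CPM in Whole Egg-1 to Whole Egg-4, against 1589, 1483, 1612 and 1592 CPM in Control-1 to Control-4. The Whole Egg mean was 1176 ± 276 CPM and the Control mean 1569 ± 58.2 CPM (SD, n = 4 each), a ratio of 0.750, and all 4 Whole Egg fish lay below all 4 Control fish, Whole Egg-1 by a small margin and Whole Egg-2 by a large one. The order of the fish depended on the TMM factors. In CPM without these factors, Whole Egg livers had 1370, 1402, 1350.1 and 1246 against 1232.5, 1722, 1421 and 1086 in Control livers, a ratio of 0.983 with the groups overlapping. No p is given for this sum, since it runs over genes chosen as a list. The spread of the Control sums was 58.2 CPM with the factors and 274 CPM without them.

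**Figure D2:**
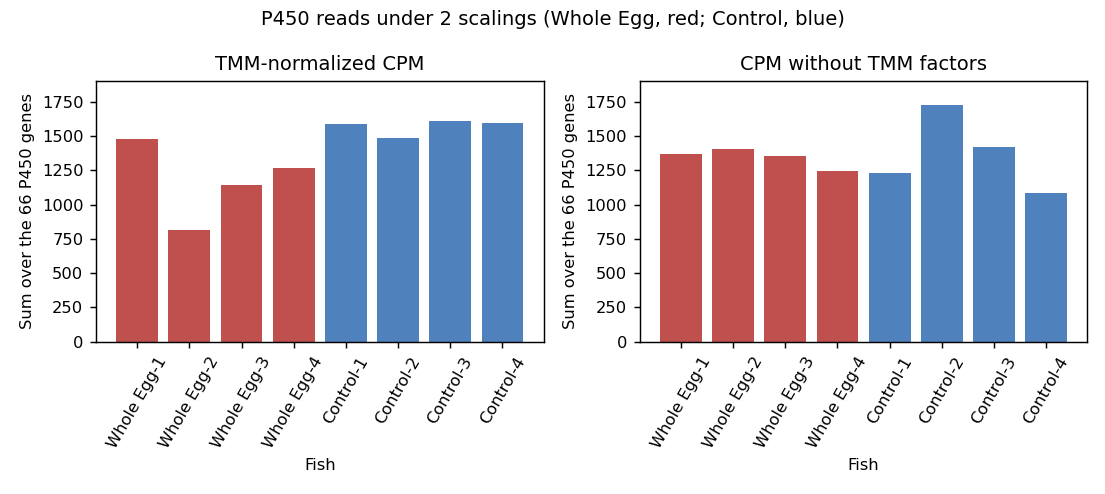
Sum over the 66 P450 genes for each fish, in TMM-normalized CPM (left panel) and in CPM without TMM factors (right panel), with Whole Egg fish in red and Control fish in blue. The groups are apart in the left panel (817 to 1476 against 1483 to 1612) and overlap in the right panel (1246 to 1402 against 1086 to 1722).

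A comparison that does not depend on library scaling is the share of each gene within a fish's own P450 reads. The largest share belonged to cyp1a in 4 fish (Whole Egg-3, Whole Egg-4, Control-3 and Control-4), to cyp2ad2 in 3 fish (Whole Egg-1, Whole Egg-2 and Control-2) and to cyp2k6 in 1 fish (Control-1). cyp1a held 10.5%, 11.3%, 14.9% and 17.0% of P450 reads in Whole Egg-1 to Whole Egg-4, against 13.4%, 12.3%, 15.7% and 21.2% in Control-1 to Control-4. cyp2ad2 held 16.4%, 11.8%, 12.02% and 7.12% in Whole Egg fish, against 13.8%, 14.9%, 12.5% and 10.6% in Control fish. Both diets therefore covered overlapping shares of the leading genes, and the fish with the label numbers 3 and 4 of either diet were those led by cyp1a. The 6 genes with the most reads held 54.9% ± 1.48 of P450 reads in Whole Egg fish and 59.6% ± 2.43 in Control fish (SD, n = 4 each).

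The filter on low counts left 53 of the 66 members, each tested for a difference between Whole Egg and Control by the quasi-likelihood method of edgeR. At an adjusted p under 0.1 (Benjamini-Hochberg over all 13379 genes tested), 0 of 53 members and 0 genes in all were called (0% of genes). The smallest adjusted p was 0.810, for members as for all genes, and DESeq2 on the same genes also called 0. At an unadjusted p under 0.05, edgeR gave 1 member, cyp2p7, where 3.9% of all genes tested passed, and DESeq2 gave 3 members (cyp2p7, cyp2y3 and cyp11a1), where 6.44% of genes passed. In edgeR 0 of 53 members were higher in Whole Egg at that limit, where 2.54% of genes were, and 1 was lower, where 1.36% of genes were. By the adjusted test, which corrects for the number of genes tested, no member differed between the diets. The unadjusted count was 6 of 53 with upper quartile normalization (3.52% of genes) and 2 of 53 without TMM factors (10.97% of genes). With the fish number added to the fit as a block, it was 11 of 53, all lower in Whole Egg (5.64% of genes). The labels do not say what the fish number stands for. The unadjusted count also moved when 1 fish was left out, to 15 of 55 members without Whole Egg-1 (9.95% of genes), 8 of 53 without Whole Egg-4 (9.67%), 5 of 55 without Control-2 (2.46%), 3 of 53 without Whole Egg-2 (2.67%), 3 of 55 without Whole Egg-3 (4.18%) and 2 of 54 without Control-1 (2.54%). It was 1 without Control-3 or Control-4, and 0 members had an adjusted p under 0.1 in any of these fits.

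The fitted log2 fold change (Whole Egg over Control) was below 0 for 44 of 53 members, where 45.8% of all genes tested lay below 0. The median was −0.45 over the members and 0.04 over all genes tested. Over the 16 hepatocyte markers the median was −0.27, so a median below 0 was not particular to the P450 genes. The mean sum of these markers in TMM-normalized CPM was 32774 ± 13625 in Whole Egg and 39307 ± 7289 in Control (SD, n = 4 each). The mean TMM factor was 1.20 in Whole Egg and 0.875 in Control, and a higher factor lowers CPM. The difference between these marker sums therefore cannot be told apart from the scaling. The sign for single members depended on the scaling, since without TMM factors 31 of 53 members lay below 0 and the member median was −0.05, with a median of 0.49 over all genes. Relative to the median of all genes, the member median lay at −0.49 with TMM factors and at −0.53 without them. Library factors move all genes by nearly the same amount, so this distance cannot test whether the shift depends on the scaling. Leaving out Whole Egg-2 moved that distance to −0.35, with 46 of 53 members below 0. Whole Egg-2 was the fish with the lowest CPM in 39.6% of the 53 members and in 26.3% of all genes tested. The low hepatocyte and high ovary marker sums of Whole Egg-2, given above, moved with these values, and their part in them was not tested. The TMM factor of Whole Egg-2 (1.72) lowers its hepatocyte sum and its P450 values alike.

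**Figure D3:**
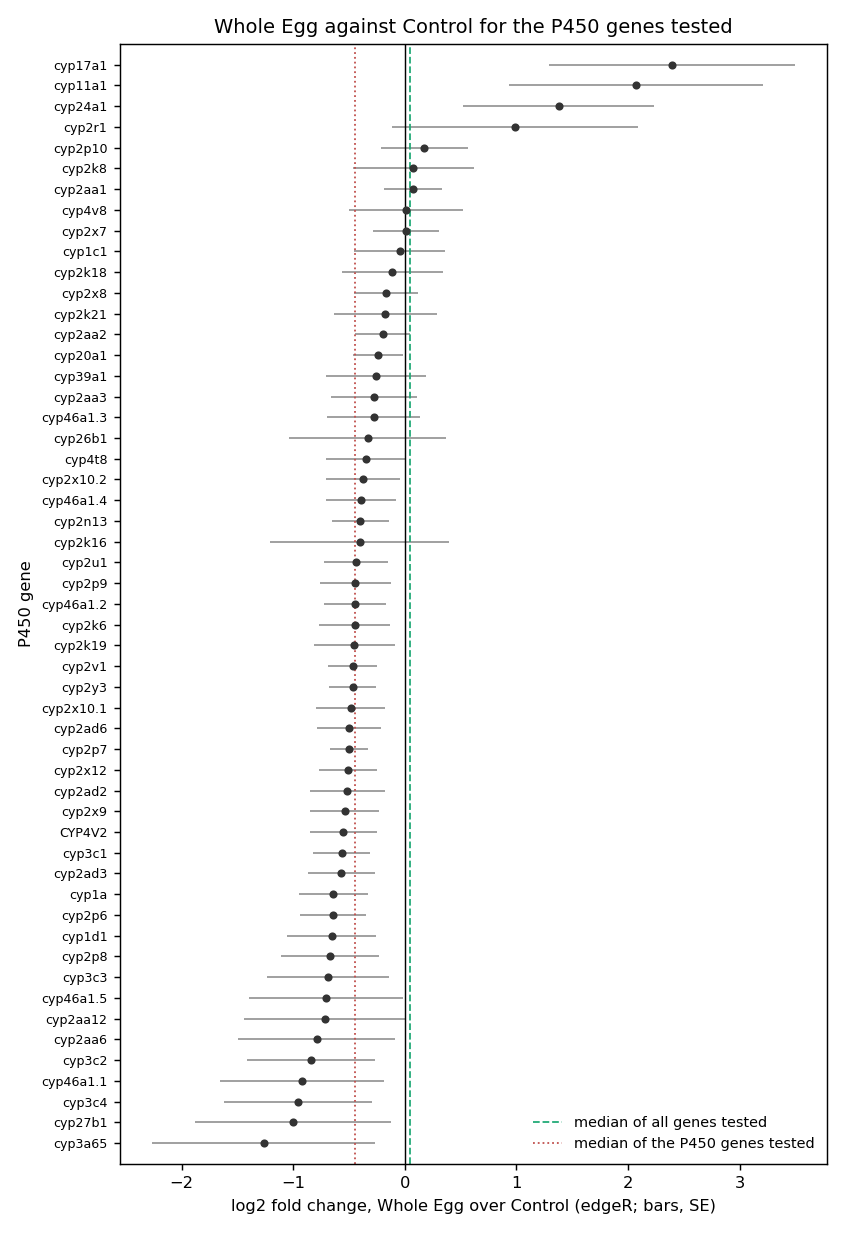
Fitted log2 fold change (Whole Egg over Control) of the 53 P450 genes tested, ordered from highest to lowest, with bars of 1 SE from edgeR; the dashed line marks the median of all genes tested (0.04) and the dotted line the median of the P450 genes (−0.45). Most points lie between 0 and −1, and the 4 highest genes (cyp17a1, cyp11a1, cyp24a1 and cyp2r1) have wide bars.

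The foreign compound enzyme cyp1a, the classic target of the aryl hydrocarbon receptor, took 14.7% of P450 reads. It had 155, 92.0, 170.1 and 215 CPM in Whole Egg-1 to Whole Egg-4, against 213, 182, 253 and 337 CPM in Control-1 to Control-4. Whole Egg-2 was lowest and Control-4 highest, and Whole Egg-4 lay inside the range of the Control fish. The log2 fold change was −0.64 (SE 0.31, adjusted p = 0.810, edgeR). Its relatives were far less frequent among the reads. cyp1d1, a CYP1 gene of fish, had 4.32, 9.08, 13.8 and 19.98 CPM in Whole Egg fish against 16.7, 21.6, 17.8 and 18.3 CPM in Control fish, so that Whole Egg-1 was lowest and Whole Egg-4 lay among the Control fish. cyp1c1 lay between 0.448 and 1.20 CPM in Whole Egg fish and between 0.452 and 0.988 CPM in Control fish. cyp1c2 had 0.196 to 0.756 CPM in Whole Egg fish and 0.110 to 0.917 CPM in Control fish and was not tested. cyp1b1, with 6 counts in all, was under the minimum.

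RNA of the aryl hydrocarbon receptor was counted in every liver, and its protein and activity were not measured. ahr2, the main aryl hydrocarbon receptor of zebrafish, had 38.8, 25.9, 46.3 and 60.4 CPM in Whole Egg fish against 49.4, 38.6, 56.8 and 51.8 CPM in Control fish (log2 fold change −0.20, SE 0.28). The Whole Egg fish had both the lowest and the highest value, so the diets overlapped. Of 7 other known targets of this receptor, 2 passed the count filter, nqo1 and tiparp. nqo1, a quinone reductase, had 1.28, 1.43, 1.46 and 0.602 CPM in Whole Egg fish against 2.31, 4.75, 2.12 and 1.51 CPM in Control fish. These groups did not overlap, with a log2 fold change of −1.15, an unadjusted p of 0.025 and an adjusted p of 0.810 in edgeR. In CPM without TMM factors they did overlap (0.591 to 2.45 in Whole Egg fish, 1.03 to 5.51 in Control fish). tiparp had 2.71 to 12.4 CPM in Whole Egg fish and 3.84 to 5.84 CPM in Control fish (log2 fold change 0.35, SE 0.47).

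Among CYP2 genes, cyp2ad2 had the most reads (12.5% of P450 reads). It had 243, 96.0, 137 and 90.3 CPM in Whole Egg-1 to Whole Egg-4, against 219, 221, 201 and 168 CPM in Control-1 to Control-4. In TMM-normalized CPM, Whole Egg-1 was the highest of all fish and the other 3 Whole Egg fish lay below every Control fish. Without TMM factors Control-2 was highest (257 CPM), and Whole Egg-1 to Whole Egg-3 (162 to 225 CPM) lay above Control-4 (115 CPM). The log2 fold change was −0.52 (SE 0.33, adjusted p = 0.810, edgeR).

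The gene cyp2k6, whose product was reported in zebrafish to oxidize lauric acid and aflatoxin B1, held 64.6% of the reads of the 9 CYP2K members. Its values were 199.6, 75.7, 114 and 119.9 CPM in Whole Egg fish, against 234, 148, 170.2 and 144 CPM in Control fish. In TMM-normalized CPM, Whole Egg-1 lay inside the Control range and the other Whole Egg fish below it (log2 fold change −0.45, SE 0.32). Without TMM factors Whole Egg-1 was the highest of all fish (185 CPM) and Control-4 the lowest (98.5 CPM). cyp2k19 was the next of the subfamily, with 103, 46.7, 54.7 and 36.7 CPM in Whole Egg fish against 83.0, 120.2, 66.6 and 60.1 CPM in Control fish. Its highest fish were Control-2 and Whole Egg-1, one of each diet (log2 fold change −0.45, SE 0.36).

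The only CYP2Y member, cyp2y3, had 56.0, 49.1, 61.6 and 60.1 CPM in Whole Egg fish, against 69.3, 64.2, 92.2 and 88.5 CPM in Control fish. All Whole Egg fish lay below all Control fish. The means were 56.7 ± 5.59 CPM in Whole Egg and 78.5 ± 13.9 CPM in Control (SD, n = 4 each), with a log2 fold change of −0.47 (SE 0.21, unadjusted p = 0.051, adjusted p = 0.810, edgeR). Without TMM factors the Whole Egg values of cyp2y3 were 52.0 to 84.3 and the Control values 53.7 to 81.3 CPM, and the groups overlapped. Its share of a fish's P450 reads was 4.99% ± 0.948 in Whole Egg and 4.99% ± 0.751 in Control.

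The member with the smallest p was cyp2p7, of the subfamily CYP2P. It had 6.58, 7.16, 7.12 and 6.74 CPM in Whole Egg-1 to Whole Egg-4, against 9.49, 10.5, 9.71 and 9.48 CPM in Control-1 to Control-4. The values within a diet were close and the diets did not overlap, with means of 6.90 ± 0.284 CPM in Whole Egg and 9.79 ± 0.474 CPM in Control (SD, n = 4 each). The log2 fold change was −0.50 (SE 0.17), with an unadjusted p of 0.016 and an adjusted p of 0.810 in edgeR. In CPM without TMM factors, cyp2p7 had 6.11 to 12.3 in Whole Egg fish and 6.46 to 12.2 in Control fish, so the separation rests on the scaling.

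Altogether 3 of 53 members had all Whole Egg fish below all Control fish in TMM-normalized CPM (cyp2y3, cyp2p7 and cyp2v1), where 1.15% of all genes tested did, and 0 members had all Whole Egg fish above, where 1.01% of genes did. Without TMM factors, 0 of 53 members had all Whole Egg fish below all Control fish, and 0.0747% of genes did. cyp2v1 had 3.34, 3.1996, 2.56 and 3.79 CPM in Whole Egg fish, against 5.16, 4.57, 4.11 and 3.98 CPM in Control fish. Of its counts on both strands, 15.6% were on the strand used (687 counts, with 3718 on the other strand). Its neighbour in the RefSeq gene order, cyp2ad2, had 30822 counts on its own strand, and the counts used here were strand-specific.

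For the other leading CYP2 genes the Control mean was above the Whole Egg mean in TMM-normalized CPM, with the diets overlapping. cyp2u1, in mammals a hydroxylase of long-chain fatty acids, had 55.1, 22.4, 38.5 and 40.6 CPM in Whole Egg fish, against 41.8, 51.03, 57.4 and 62.4 CPM in Control fish (log2 fold change −0.44, SE 0.29). cyp2p6, which leads the CYP2P subfamily, had 37.8, 23.2, 29.3 and 38.9 CPM in Whole Egg fish, against 76.9, 33.9, 46.5 and 44.7 CPM in Control fish (log2 fold change −0.64, SE 0.30, unadjusted p = 0.058, edgeR). Control-1 stood highest for cyp2p6 and Whole Egg-2 lowest, while without TMM factors Control-4 was lowest (30.4 CPM). cyp2n13 had 34.1, 24.5, 30.0 and 43.8 CPM in Whole Egg fish, against 49.8, 30.9, 43.0 and 51.2 CPM in Control fish (log2 fold change −0.40, SE 0.26). cyp2x8 had 46.1, 24.1, 27.5 and 51.6 CPM in Whole Egg fish, against 33.3, 41.9, 48.1 and 44.6 CPM in Control fish (log2 fold change −0.17, SE 0.29). For cyp2x8 both the highest and the lowest value in TMM-normalized CPM came from Whole Egg fish. Without TMM factors the mean of cyp2n13 was 38.0 CPM in Whole Egg and 36.8 CPM in Control. That of cyp2x8 was 41.8 CPM in Whole Egg and 36.8 CPM in Control, so the order turned for both. For cyp2u1 (43.7 against 46.2 CPM) and cyp2p6 (36.9 against 42.6 CPM) the Control mean stayed higher.

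**Figure D4:**
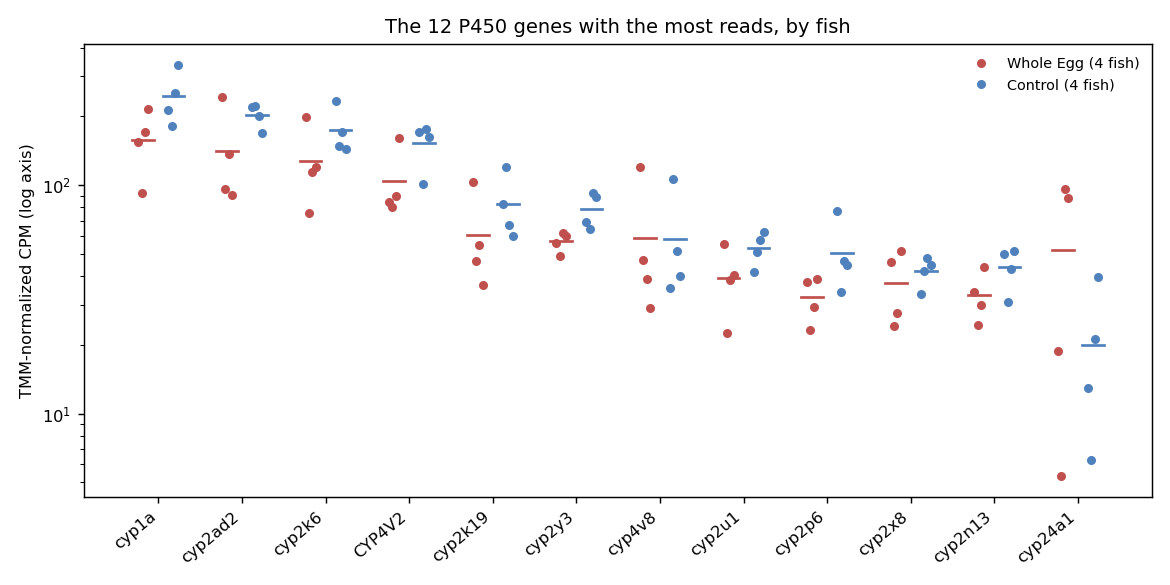
The 12 P450 genes with the most reads, in TMM-normalized CPM on a log axis; each point is 1 fish, Whole Egg in red to the left of Control in blue, and the horizontal lines are the means of 4 fish. For most genes the Whole Egg points reach lower, often with Whole Egg-2 lowest, while cyp24a1 spans 5.32 to 96.5 CPM in Whole Egg fish and 6.24 to 39.7 CPM in Control fish.

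Many members are neighbouring copies. In the RefSeq gene order, 41 members stand in 7 runs of 3 or more P450 genes with at most 2 other coding genes between them, and these runs took 51.5% of P450 reads. The longest run joins 11 genes of CYP2N, CYP2AD, CYP2V, CYP2P and CYP2J, related to the human gene CYP2J2, and took 23.7% of P450 reads. Within it the mean over 8 fish reached 172 CPM for cyp2ad2 and 0.445 CPM for cyp2j20. A run of 8 CYP2K genes took 17.0% and held cyp2k6 with a mean of 151 CPM and cyp2k17 with 0.0567 CPM. Neighbours thus differed widely in reads, though copies that share sequence may each lack reads that map to both.

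The CYP2AA genes, a fish subfamily with 8 members, took 1.80% of P450 reads. cyp2aa12 had 11.003, 0.756, 9.04 and 4.51 CPM in Whole Egg fish against 13.99, 14.4, 3.04 and 10.2 CPM in Control fish (log2 fold change −0.72, SE 0.72), a span of 19.0-fold between the highest and the lowest fish. cyp2aa1 was among the most even members, with 1.95 to 3.49 CPM in Whole Egg fish and 2.49 to 3.16 CPM in Control fish (log2 fold change 0.07, SE 0.26). The subfamily held both uneven and even genes. cyp2j20 (0.244 to 0.662 CPM in Whole Egg fish, 0.316 to 0.713 CPM in Control fish) and cyp2ae1 (0.0602 to 0.320 CPM in Whole Egg fish, 0.0316 to 0.723 CPM in Control fish) were too low to be tested.

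In the CYP3 family, known in mammals for oxidizing many drugs and steroids, cyp3c1 had the most reads. It had 14.98, 12.4, 22.2 and 20.8 CPM in Whole Egg fish, against 27.1, 20.02, 32.0 and 25.1 CPM in Control fish. The diets overlapped in Control-2 alone (log2 fold change −0.56, SE 0.25, unadjusted p = 0.053, edgeR). cyp3a65, which is expressed in zebrafish liver and intestine, had 1.52, 5.44, 1.22 and 6.38 CPM in Whole Egg fish, against 0.768, 27.5, 4.02 and 2.61 CPM in Control fish. Control-2 stood far above the rest and was also the fish with the highest intestine marker sum (451 CPM against 77.1 to 241 CPM). The part of intestinal RNA in the cyp3a65 value was not tested. With all fish the log2 fold change was −1.26 (SE 0.999), and without Control-2 it was 0.56.

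CYP4 enzymes hydroxylate fatty acids at or near the omega end. The gene listed as CYP4V2 (ENSDARG00000061585) took 9.34% of P450 reads and had 84.8, 80.0, 89.7 and 161 CPM in Whole Egg-1 to Whole Egg-4, against 170.0, 101, 177 and 162 CPM in Control-1 to Control-4. In Whole Egg fish 3 values lay close together with Whole Egg-4 above, and in Control fish 3 lay close together with Control-2 below (log2 fold change −0.55, SE 0.30, adjusted p = 0.810, edgeR). This grouping rests on the scaling. Without TMM factors CYP4V2 had 78.7, 137, 106 and 158 CPM in Whole Egg fish, against 132, 118, 156 and 110 CPM in Control fish. Its paralog cyp4v8 had 120.1, 46.8, 38.9 and 29.0 CPM in Whole Egg fish, against 35.3, 106, 51.7 and 40.1 CPM in Control fish. The highest fish for cyp4v8, Whole Egg-1 and Control-2, were among the lower ones for CYP4V2. For cyp4v8 the log2 fold change was 0.01 (SE 0.51), the smallest shift among the leading genes, and its sign was not stable. The sum of both genes in TMM-normalized CPM was 163 ± 40.8 in Whole Egg and 211 ± 11.9 in Control (SD, n = 4 each). Without TMM factors the Whole Egg and Control means were 120 and 129 CPM for CYP4V2 and 66.5 and 55.8 CPM for cyp4v8.

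The remaining CYP4 genes were cyp4t8 and cyp4f3. cyp4t8 had 27.8, 16.0, 35.7 and 44.1 CPM in Whole Egg fish, against 34.4, 24.4, 47.8 and 51.04 CPM in Control fish (log2 fold change −0.35, SE 0.35). cyp4f3, named after the human enzyme that inactivates leukotriene B4, reached at most 0.122 CPM in Whole Egg fish and 0.181 CPM in Control fish.

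The vitamin D enzymes spread more widely between fish than between diets. cyp2r1, which makes 25-hydroxyvitamin D, had 15.3, 4.10, 0.855 and 0.181 CPM in Whole Egg-1 to Whole Egg-4, against 1.65, 2.76, 5.35 and 0.412 CPM in Control-1 to Control-4, an 84.9-fold span. cyp27b1, which makes the active hormone, had 0.737, 3.34, 0.773 and 0.0602 CPM in Whole Egg fish, against 1.54, 5.02, 2.78 and 0.756 CPM in Control fish. Whole Egg-4 was lowest for both. cyp24a1, which inactivates the hormone and is induced by it, had 18.7, 5.32, 96.5 and 87.6 CPM in Whole Egg fish, against 12.9, 6.24, 21.2 and 39.7 CPM in Control fish. Whole Egg-3 and Whole Egg-4 stood above all other fish for cyp24a1, and the fish numbered 2 were lowest on both diets.

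None of these differed between diets by the adjusted test. The log2 fold changes were 1.38 for cyp24a1 (SE 0.86), 0.99 for cyp2r1 (SE 1.101) and −1.003 for cyp27b1 (SE 0.88), with adjusted p of 0.810, 0.854 and 0.833 in edgeR. Without Whole Egg-1, the value for cyp2r1 was −0.56. That for cyp27b1 was −2.22 without Whole Egg-2 and −0.43 without Control-2, and that for cyp24a1 was 0.90 without Whole Egg-3. As a share of a fish's P450 reads, cyp24a1 held 1.27%, 0.652%, 8.44% and 6.90% in Whole Egg fish, against 0.812%, 0.421%, 1.32% and 2.49% in Control fish.

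**Figure D5:**
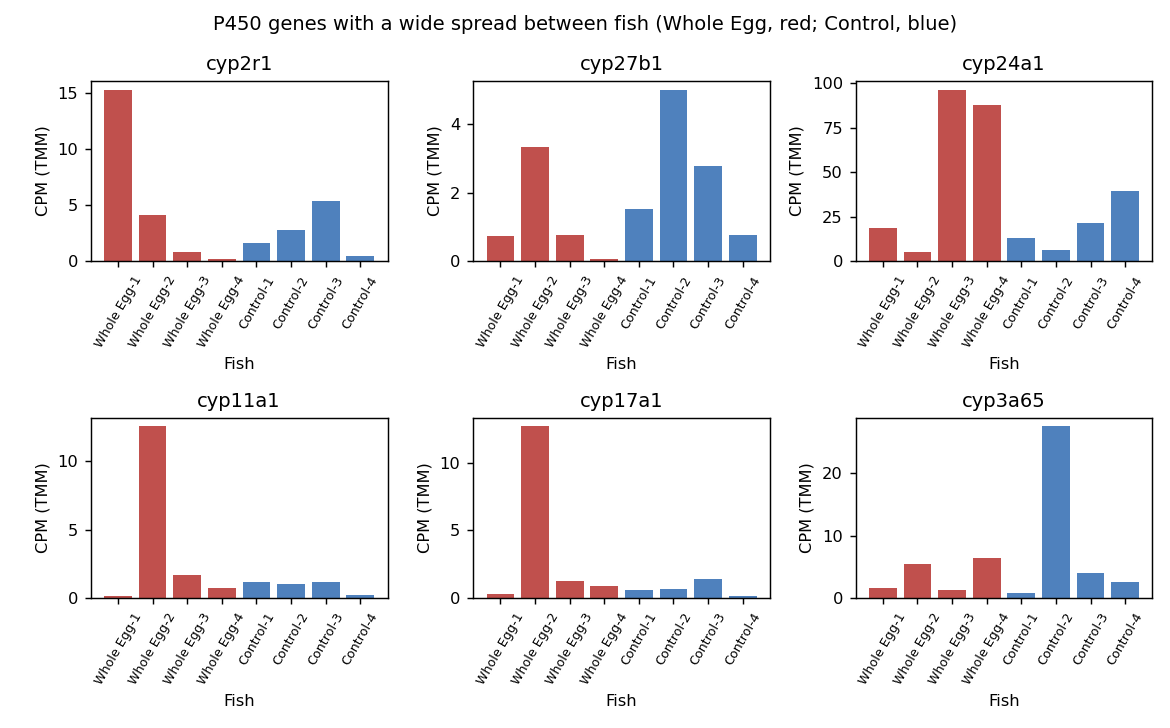
TMM-normalized CPM (vertical axes, each with its own scale starting at 0) of 6 P450 genes with a wide spread between fish, 1 bar per fish, Whole Egg in red and Control in blue. In 4 panels a single fish towers over the others: Whole Egg-1 for cyp2r1 (15.3 CPM), Whole Egg-2 for cyp11a1 (12.6 CPM) and cyp17a1 (12.7 CPM), and Control-2 for cyp3a65 (27.5 CPM); for cyp27b1 Control-2 (5.02 CPM) and for cyp24a1 Whole Egg-3 (96.5 CPM) are highest.

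Genes of steroid hormone synthesis had few reads in all fish but 1. cyp11a1, which cleaves the side chain of cholesterol, had 0.0982, 12.6, 1.67 and 0.722 CPM in Whole Egg-1 to Whole Egg-4, against 1.15, 1.04, 1.17 and 0.206 CPM in Control-1 to Control-4. cyp17a1, the next enzyme toward androgens and estrogens, had 0.295, 12.7, 1.26 and 0.903 CPM in Whole Egg fish, against 0.604, 0.678, 1.39 and 0.137 CPM in Control fish. Both were highest in Whole Egg-2, the fish with the highest sum of ovary and oocyte markers, and the part of ovarian RNA in these values was not tested. The sum of the 16 genes of the list for ovarian follicle and interrenal steroid cells was 4.76 to 11.2 CPM in Whole Egg fish (9.08 CPM in Whole Egg-2) and 4.97 to 9.55 CPM in Control fish, most of it from inhba and lhcgr, the 2 genes of the list that passed the count filter. The other 14 genes summed to 3.61 CPM in Whole Egg-2, against 0.196 to 1.14 CPM in the other Whole Egg fish and 0.474 to 0.768 CPM in Control fish, and 7 of the 16 genes were highest in Whole Egg-2. Among these, hsd3b2, a steroid dehydrogenase gene, had 1.28 CPM in Whole Egg-2 and at most 0.165 CPM in any other fish, while star, which brings cholesterol to cyp11a1, reached at most 0.122 CPM in any fish.

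With all fish, the log2 fold changes were 2.07 for cyp11a1 (SE 1.14) and 2.39 for cyp17a1 (SE 1.11), with adjusted p of 0.810 for both in edgeR. Without Whole Egg-2, that of cyp11a1 was −0.10 and that of cyp17a1 was 0.17. Other steroid genes were hardly counted. cyp17a2 reached 0.465 CPM, also in Whole Egg-2, and aromatase cyp19a1a (1 count), cyp21a2 (1 count) and cyp11c1 (5 counts) were under the minimum over all fish. A second identifier listed as cyp11a1 had 3 counts.

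CYP26 enzymes clear retinoic acid. cyp26b1 had 0.540, 0.524, 0.936 and 3.13 CPM in Whole Egg fish, against 1.43, 0.452, 1.52 and 3.02 CPM in Control fish, with the fish numbered 4 highest on both diets (log2 fold change −0.33, SE 0.70). cyp26a1 had 1.54 CPM in Whole Egg-2 and at most 0.285 CPM in every other fish, and cyp26c1 had 0 counts. cyp27c1, which in zebrafish converts vitamin A1 to A2, had 1 count.

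CYP46A and CYP39A enzymes hydroxylate cholesterol and oxysterols in mammals, where CYP46A1 is a brain enzyme. The 5 zebrafish CYP46A genes took 1.87% of P450 reads, led by cyp46a1.4 with 17.8, 7.62, 10.5 and 8.19 CPM in Whole Egg fish, against 11.3, 19.2, 13.5 and 14.01 CPM in Control fish (log2 fold change −0.39, SE 0.31). cyp46a1.1 had 0.669 to 1.02 CPM in Whole Egg fish and 0.384 to 4.61 CPM in Control fish, where Control-2 held the highest value. Without Control-2 its log2 fold change of −0.92 (SE 0.73) became 0.52. cyp39a1 had 13.3, 5.29, 20.4 and 6.74 CPM in Whole Egg fish, against 8.73, 15.5, 10.8 and 19.9 CPM in Control fish, so that Whole Egg-3 was highest and Whole Egg-2 lowest (log2 fold change −0.26, SE 0.45). cyp20a1, a P450 without an established substrate, was among the most even members, with 6.43, 4.94, 4.803 and 4.63 CPM in Whole Egg fish, against 7.74, 5.42, 6.55 and 4.88 CPM in Control fish.

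The spread between fish limited what the diet comparison could show. Among the 53 members tested, the median fold between the highest and the lowest fish was 3.14, with 22 members under 3-fold and 12 over 10-fold. Of the 46 members with a mean of at least 1 CPM, the SD of log2 CPM over the 8 fish was lowest for cyp2aa1 (0.26), cyp20a1 (0.26) and cyp2p7 (0.27) and highest for cyp2r1 (1.92), cyp11a1 (1.83) and cyp17a1 (1.73). Members with more reads were about as even as other genes. At means of 20 to 100 CPM the median SD within a diet was 0.43 for 14 members and 0.44 for 1360 genes, and above 100 CPM it was 0.46 for 4 members and 0.48 for 393 genes. At 1 to 5 CPM it was 0.72 for 18 members and 0.51 for 6063 genes, and at 5 to 20 CPM 0.44 for 10 members and 0.40 for 3880 genes. The SE of the log2 fold change ranged from 0.17 (cyp2p7) to 1.14 (cyp11a1), with a median of 0.36. The 13 members that were not tested had 10 to 90 counts over all fish and took 0.226% of P450 reads.

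P450 enzymes need partners that supply electrons and heme. The oxidoreductase has 2 zebrafish genes. The gene listed as por had 276, 107, 222 and 269.6 CPM in Whole Egg fish, against 238, 218, 276 and 285 CPM in Control fish (log2 fold change −0.22, SE 0.31). Whole Egg-2 was lowest, as for the P450 sum in TMM-normalized CPM. pora had 6.34, 5.67, 13.6 and 9.81 CPM in Whole Egg fish, against 5.27, 6.96, 7.66 and 9.82 CPM in Control fish (log2 fold change 0.25, SE 0.32). Of 14 redox partners, 13 were tested, 0 were called at an adjusted p under 0.1 by edgeR, and 1 was lower in Whole Egg at an unadjusted p under 0.05, where 1.36% of genes were. That gene was cyb5r2, a cytochrome b5 reductase, with 3.34 to 7.22 CPM in Whole Egg fish and 3.95 to 19.7 CPM in Control fish. Control-1 was the fish at 3.95 CPM, and the other Control fish had 10.2 to 19.7 CPM. The log2 fold change of cyb5r2 was −1.07 (SE 0.46, unadjusted p = 0.045, adjusted p = 0.810, edgeR), and its values without TMM factors are not given here. The median log2 fold change of the list was −0.15.

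Heme synthesis genes showed no call. The list of 11 genes tested also holds hmox1a, a heme oxygenase gene of heme breakdown. Of the 11, 0 passed an adjusted p under 0.1 or an unadjusted p under 0.05 in edgeR, where 0% and 3.9% of all genes tested did. The median log2 fold change of the list was 0.16, which is the value of hmox1a itself. alas1, the first and controlling enzyme, had 148, 24.4, 41.3 and 36.9 CPM in Whole Egg fish, against 45.99, 62.6, 30.1 and 97.8 CPM in Control fish, with Whole Egg-1 highest (log2 fold change 0.09, SE 0.59). uros had the smallest p of this list (0.229 unadjusted in edgeR, log2 fold change 0.42).

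Regulators of P450 genes gave 1 gene below the unadjusted limit. Of 32 listed, 28 were tested, 0 were called at an adjusted p under 0.1 by edgeR, and rxraa, a retinoid X receptor gene, was the only 1 at an unadjusted p under 0.05, where 3.9% of all genes tested passed. It had 4.13, 5.29, 3.46 and 6.44 CPM in Whole Egg fish, against 9.11, 7.50, 6.80 and 6.94 CPM in Control fish (log2 fold change −0.65, SE 0.25). In CPM without TMM factors the diets overlapped for rxraa (3.83 to 9.09 in Whole Egg, 4.73 to 8.71 in Control). nr1i2, the pregnane X receptor, had 16.2, 11.9, 26.1 and 25.9 CPM in Whole Egg fish, against 19.5, 16.5, 29.7 and 24.4 CPM in Control fish, and overlapped between diets. hnf4a, a hepatocyte transcription factor, had 124, 34.6, 70.8 and 72.5 CPM in Whole Egg fish, against 83.5, 83.3, 53.02 and 92.8 CPM in Control fish, with Whole Egg-1 highest and Whole Egg-2 lowest (log2 fold change −0.05, SE 0.37). The median log2 fold change of the regulators was −0.20.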

How the data were processed

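Reads were filtered by the authors with Trimmomatic 0.36, aligned to GRCz11 with STAR 2.5.2b and deposited as raw counts per gene, with no normalization and no filter. The strand-specific column with at least 97.7% of stranded counts was used. The tools were R 4.3.3, edgeR 4.0.16 (TMM, filterByExpr with a minimum count of 10, quasi-likelihood test, Benjamini-Hochberg over all 13379 genes) and DESeq2 1.42.0. The prior count of log2 CPM was 2. The test was checked on simulated data with changes larger than those fitted for nearly all members, so the check does not cover smaller changes.

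Symbols came from a table of gene names (29201 of 32520 identifiers), and 2 members (cyp2x12 and cyp2aa6) were named from the paper's supplement. Of the 76 P450 identifiers, 17 have a capital symbol in the table of gene names. All of these but CYP4V2 are printed in small letters here. Gene order came from RefSeq (GRCz12tu, an assembly other than that of the counts). Named were the 12 members with the most reads, those with an unadjusted p under 0.05, the leader of each subfamily, a panel by role, and the 3 most and least even members with a mean of at least 1 CPM. Of the panel, cyp11a2 and cyp19a1b were not matched. Others named were chosen after their values were seen. Of the partner lists, the gene with the smallest p and a fixed few were named. The members and lists were chosen with earlier results of these data known. Transcript lengths were not used here, so levels per length are not given.

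Alternatives were DESeq2, other size factors, other count filters, the unstranded count, a block for fish number, an adjusted p under 0.05, and leaving out fish. DESeq2 with the block, a fit without TMM factors and the members without the 2 named from the supplement were chosen after seeing the data.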

Additional observations from a re-analysis of the deposited data

Results flagged for a closer look

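In 4 of 72 groups of 4 fish examined for a single distant value (Dixon's test on log2 CPM), 1 fish stood apart, where chance gives about 1 in 20 groups. The number of groups found is thus close to that given by chance. CYP4V2 was at 161 CPM in Whole Egg-4, with 80.0 to 89.7 CPM in the other Whole Egg fish. CYP4V2 was at 101 CPM in Control-2, with 162 to 177 CPM in the other Control fish. These CYP4V2 values depend on the TMM factors. Without them the Control fish had 110 to 156 CPM, with Control-4 lowest, and the Whole Egg fish 78.7 to 158 CPM. cyp11a1 was at 0.206 CPM (3 counts) in Control-4, with 1.04 to 1.17 CPM in the other Control fish. cyp17a2 was at 0.226 CPM in Control-2, with 0 counts in the other Control fish, so that any count in a single fish would have stood apart.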

How the results depend on the processing

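At an adjusted p under 0.1, 0 P450 members were called under every alternative run, and 0 genes in all, except that DESeq2 with the replicate block called 20 genes, 0 of them members. For the fish without Whole Egg-1 and Control-4, the paper did report differing genes at that limit. It used DESeq2 after removing genes with few reads, and RT-PCR in more fish did not bear out the genes it retested. Here that set was fitted with edgeR and the main count filter, so the results are not directly comparable. At an unadjusted p under 0.05, the count of members (1 as reported) was 3 with DESeq2 (6.44% of genes), 6 with upper quartile normalization (3.52% of genes), 2 with the unstranded count (4.09%), 2 without TMM factors (10.97%), 0 of 33 with at least 30 counts in every fish (3.22%), and 3 (2.12%) and 12 (7.34%, 11 of the 12 lower in Whole Egg) without the pairs the study left out, Whole Egg-2 with Control-2 and Whole Egg-1 with Control-4. It was 1 to 15 when 1 fish was left out, highest without Whole Egg-1 (15 of 55, 13 lower in Whole Egg, where 9.95% of genes passed), then without Whole Egg-4 (8), Control-2 (5), Whole Egg-2 (3), Whole Egg-3 (3) and Control-1 (2). The fish numbers were not taken as pairs, since the labels give them no meaning. With diet means removed, log2 CPM of Whole Egg-1 to Whole Egg-4 correlated with the same-numbered Control fish at r of 0.20, 0.35, 0.079 and 0.45. The highest r with a Control fish of another number was 0.15, 0.24, 0.096 and 0.030. The same number was thus the best match for numbers 1, 2 and 4 but not for 3. What the numbers share was not tested. With the replicate block, edgeR gave 11 members, all lower in Whole Egg (5.64% of genes passed), and DESeq2 gave 13 (6.11% of genes). The ratio of P450 sums (0.750) was 0.983 without TMM factors and 0.686 to 0.826 when 1 fish was left out.

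Log2 fold changes turned sign for cyp4v8 (−0.080 with upper quartile normalization, −0.12 with the edgeR and −0.10 with the DESeq2 replicate block, −0.76 without Whole Egg-1 and Control-4). The last setting turned 7 of 53 members in all, with cyp1c1 (0.097), cyp26b1 (0.39), cyp2r1 (−0.90), cyp2k18 (0.13), cyp2k8 (−0.70) and cyp2x7 (−0.23), and the other pair left out turned 6 of 53, cyp11a1 (−0.043), cyp39a1 (0.049), cyp3a65 (0.27), cyp46a1.1 (0.60), cyp2k16 (0.15) and cyp46a1.3 (0.16). When 1 fish was left out, values ran from −0.61 to 0.49 for cyp4v8, −0.33 to 0.16 for cyp1c1, −1.26 to 0.15 for cyp26b1, −0.56 to 1.65 for cyp2r1, −0.10 to 2.45 for cyp11a1, −1.67 to 0.56 for cyp3a65, −1.24 to 0.52 for cyp46a1.1 and −0.026 to 0.23 for cyp2aa1. The cause of these turns was not tested. The filter on low counts left 13 members untested.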
